A study of Danio rerio with 4 samples.

Results

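The genes described here handle zinc, iron and copper in the gut of adult zebrafish (Danio rerio) that carry the st95 mutation of irf8. They were chosen by symbol. The symbols cover the solute carrier families 11, 30, 31, 39 and 40, ferritin, transferrin and its receptors, and hepcidin and its regulators. They also cover metallothionein 2, copper ATPases, ferroxidases, ferrireductases and iron sensors. Of the 14781 genes of the count table, 38 matched. Messenger RNA of the whole gut was sequenced from 2 irf8 homozygous mutant fish and 2 irf8 heterozygous mutant fish, all untreated adults. Every fish thus carried the st95 allele, the heterozygotes alongside an intact copy. irf8 encodes a transcription factor needed for macrophages to form, and the comparison asks which gut transcripts differ when it is lost.

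Dietary iron enters the gut epithelium in the ferrous form through the transporter Slc11a2, is stored in ferritin and leaves through the exporter Slc40a1, which the hormone hepcidin removes from the membrane. Macrophages take part in this economy by recovering iron from old red blood cells. Zinc is moved into the cytosol by the Slc39 (ZIP) importers and out of it by the Slc30 (ZnT) exporters, and metallothionein buffers it. Copper enters through Slc31a1 and is handed by the chaperone Atox1 to copper-pumping ATPases.

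Library totals were 6389553 and 9351100 counts in homozygotes (replicates 1 and 2) and 6350840 and 10391963 in heterozygotes, and 11059 to 12486 genes had at least 1 count. Of 15 enterocyte markers, 14 were detected in each homozygous and 15 in each heterozygous library. The libraries differed within a genotype in markers of neighbouring tissue. Values are in CPM, counts normalised to the library size after scaling by the trimmed mean of M values (TMM). The 23 pancreas markers summed to 38455 and 3738 CPM in homozygotes and to 14270 and 339282 CPM in heterozygotes. The 18 liver markers summed to 328 and 899 CPM in homozygotes and to 167 and 4261 CPM in heterozygotes. irf8 itself had 25 and 25 counts in homozygotes and 30 and 50 in heterozygotes, or 3.70 and 2.31 CPM against 5.12 and 5.47 CPM. Both homozygous libraries were lowest (background 19.3% of all genes tested), with a log2 fold change of -0.82 ± 0.58 (SE). These values do not check the labels, since a mutation need not remove the transcript.

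None of the metal handling genes passed the test between genotypes. Of the 38 genes 29 had enough counts to be tested, 15 with a higher and 14 with a lower estimate in homozygotes, where 46.7% of all genes tested had a higher one. The 29 had a median log2 fold change of 0.12, against -0.05 over all 9701 genes tested. At a Benjamini-Hochberg adjusted p of 0.05, edgeR's quasi-likelihood test called 0 of the 29 and 0.0% of all tested genes. The lowest adjusted p among the 29 was 0.699. At an unadjusted p under 0.05 there were 2 of the 29, where 6.47% of all genes tested lay under it. DESeq2's Wald test also called 0 of the 29, against 0.598% of all genes, with a lowest adjusted p of 0.327 among the 29. It gave no adjusted p for 3 of the 29 (hamp, bmp6 and slc39a13) and could not call them. Both shares count genes without an adjusted p as not called. At an unadjusted p under 0.05 it had 784 of the 9701 genes, 4 of them members. These 4 were slc31a2, slc39a4, tfr1b and aco1. The authors' deposited table of 76 genes names 0 of the 38.

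In 5 of the 29 both homozygous libraries lay above both heterozygous ones (background 19.9% of all genes tested), and in 5 both lay below (background 19.3%). Together that is 34.5% of the 29, and 39.2% of all genes. The 5 with both homozygous libraries highest were slc39a4, tfr1b, slc30a10, slc30a1a and fth1b, and the 5 with both lowest were slc31a2, slc30a5, atox1, slc30a7 and slc30a4. Replicates of a genotype lay far apart in this group of genes. The median gap between replicates, on a log2 scale with 0.5 CPM added, was 0.69 in homozygotes and 0.93 in heterozygotes for the 29, against 0.46 and 0.59 over all genes. In 6 of the 29 the gap between genotype means was wider than both replicate gaps (slc39a4, slc31a2, tfr1b, slc30a5, slc30a10 and fth1b), 20.7% of them, beside 25.9% of all genes. In a whole organ, fewer cells of a type and less RNA per cell cannot be told apart.

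**Figure D1:**
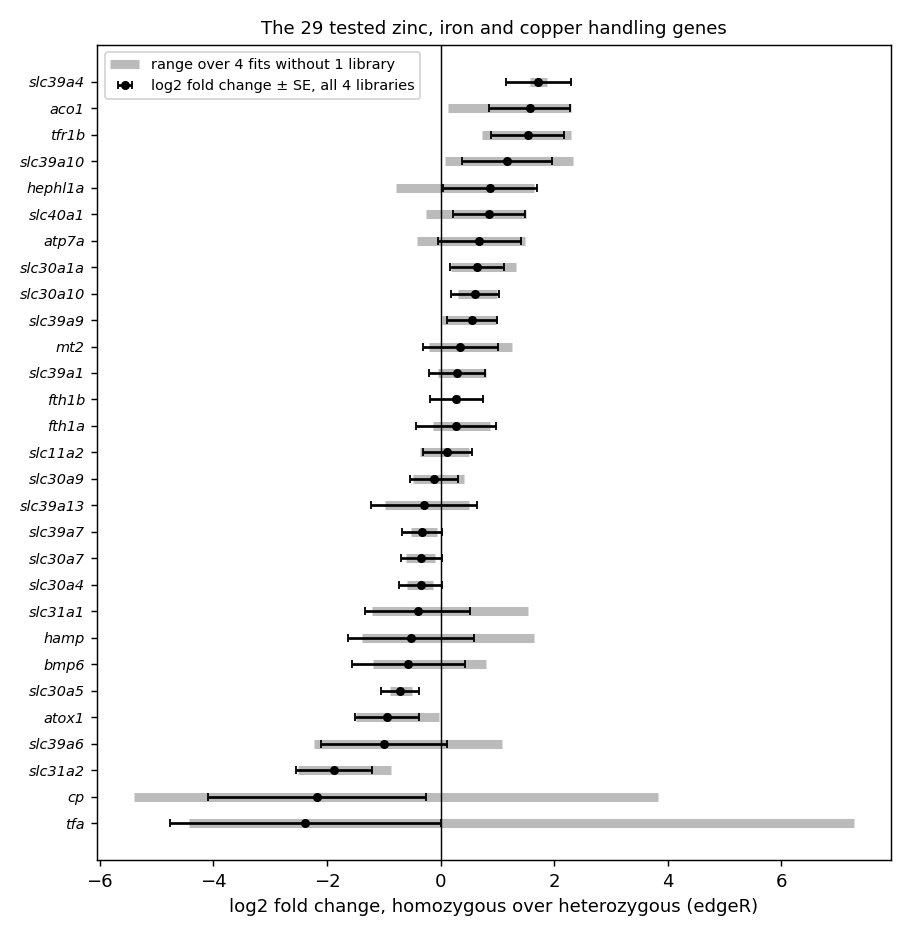
Log2 fold change of homozygous over heterozygous gut for the 29 tested genes, from edgeR with all 4 libraries (points, bars are the standard error); grey bars span the values of 4 fits that each leave out 1 library. In 15 of the 29 genes the grey bar crosses 0, and the widest belong to tfa and cp.

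Leaving out 1 library turned the sign of the estimate in 15 of the 29 genes, while 14 kept it in all 4 such fits. The same count was not made over all genes tested, so it does not set this group apart. Of the 29, 11 had their highest level in homozygous replicate 2 and 1, slc39a6, its lowest there. Over all genes 26.0% were highest and 27.9% lowest in that library. The 11 include slc11a2, slc40a1, hephl1a, tfr1b, fth1a and aco1, which take up, export, store or sense iron. The rest of the 11 were slc39a10, slc39a9, slc39a1 and slc30a1a of zinc and atp7a of copper. tfa, fth1b, hamp and bmp6, also of iron, and the ferroxidase gene cp were highest in other libraries. So were tfr1a, tfr2, steap4, cybrd1 and hfe2, too low to test, all highest in heterozygous replicate 2.

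The iron import and export genes slc11a2, slc40a1 and hephl1a were highest in homozygous replicate 2, while the other homozygous fish was at or near the lowest. slc11a2 encodes the ferrous iron transporter of the apical membrane (chromosome 11, 262381 to 269222, minus strand, 7 exons, build danRer10). It was at 68.4 and 121 CPM in homozygotes and 80.2 and 94.3 CPM in heterozygotes. The groups overlapped, with a log2 fold change of 0.12 ± 0.44 (SE, n = 2 each; edgeR adjusted p = 0.954). slc40a1, the gene of the iron exporter ferroportin (chromosome 9, 41301363 to 41312090, plus strand, 8 exons), was at 65.3 and 215 CPM in homozygotes and 90.1 and 65.0 CPM in heterozygotes. Homozygous replicate 2 alone was high. Its log2 fold change was 0.86 ± 0.64 (edgeR adjusted p = 0.738), and -0.25 without that library. hephl1a encodes a relative of the iron-oxidising enzyme hephaestin, which in mammals works beside ferroportin. It was at 2.96 and 15.7 CPM in homozygotes and 4.10 and 6.13 CPM in heterozygotes, again highest in homozygous replicate 2. Its log2 fold change of 0.87 ± 0.82 became -0.79 without homozygous replicate 2. cybrd1, for a reductase that prepares dietary iron for uptake, was too low to test, with 8 and 3 counts in homozygotes and 5 and 15 in heterozygotes.

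tfr1b and the ferritin gene fth1b were the iron genes with both homozygous fish highest, tfr1b by the wider margin. tfr1b encodes a transferrin receptor, which brings iron-loaded transferrin into cells (chromosome 24, 25872053 to 25886205, plus strand, 18 exons). It was at 60.0 and 148 CPM in homozygotes and 21.2 and 50.5 CPM in heterozygotes. The lower homozygous value stood above the higher heterozygous one. The mean was 104 ± 62.5 CPM in homozygotes and 35.9 ± 20.8 CPM in heterozygotes (SD, n = 2 each), 2.90-fold higher (log2 1.54 ± 0.64, SE; edgeR adjusted p = 0.699). The estimate was lowest, at 0.74, without homozygous replicate 2, and highest, at 2.29, when heterozygous replicate 2 was left out.

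The other transferrin receptor genes, and transferrin itself, were highest in heterozygous replicate 2, the library in which the liver markers were highest too. tfr1a, the receptor gene used by developing red cells in zebrafish, had 1 and 2 counts in homozygotes and 1 and 44 in heterozygotes. tfr2, which in mammals senses transferrin in liver, had 0 and 3 counts in homozygotes and 0 and 11 in heterozygotes. Where no read was counted, the level could still reach 3 counts, equal to 0.444 CPM in homozygous replicate 1 and 0.512 CPM in heterozygous replicate 1, for counting error only. Neither gene had enough counts to be tested. The ratio of summed counts, homozygous over heterozygous, was 0.0568 for tfr1a (95% counting interval 0.0113 to 0.177) and 0.233 for tfr2 (0.0417 to 0.880), and it rests on heterozygous replicate 2.

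tfa, the transferrin gene, which is made in liver (chromosome 2, 17112044 to 17123587, plus strand, 17 exons), spanned the widest range of all. It was at 45.9 and 334 CPM in homozygotes and 1.20 and 1980 CPM in heterozygotes. cp, for the copper-carrying plasma ferroxidase ceruloplasmin (chromosome 22, 38220827 to 38246610, plus strand, 20 exons), was at 1.04 and 18.5 CPM in homozygotes and 0.683 and 88.4 CPM in heterozygotes. Both genes ranked the libraries as the liver markers did, with heterozygous replicate 2 highest and heterozygous replicate 1 lowest. The log2 fold changes were -2.38 ± 2.39 for tfa and -2.17 ± 1.92 for cp (edgeR adjusted p = 0.796 and 0.770). Without heterozygous replicate 2 they were 7.29 and 3.82, the opposite direction. All 18 liver markers had lower estimates as well, with 0 called by edgeR and with 0 having both homozygous libraries lowest (background 19.3% of all genes tested). Their part in these values was not tested. The erythrocyte markers, 11 genes, summed to 109 and 80.3 CPM in homozygotes and 36.5 and 737 CPM in heterozygotes. steap4, for a membrane reductase of iron and copper, had 0 and 10 counts in homozygotes and 0 and 60 in heterozygotes, so it was seen in replicate 2 of each genotype alone.

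**Figure D2:**
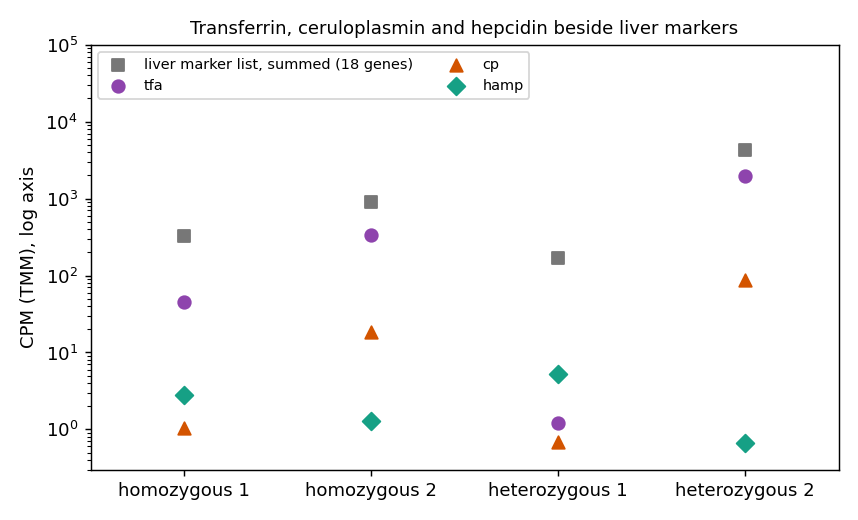
CPM on a log axis in each of the 4 gut libraries for tfa, cp and hamp and for the summed liver marker list of 18 genes. tfa and cp fall in the same library order as the liver markers, highest at 1980 and 88.4 CPM in heterozygous replicate 2, while hamp falls in the opposite order.

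Genes of the hepcidin axis were scarce. hamp encodes hepcidin, the hormone that limits iron export and is made mainly in liver in mammals (chromosome 16, 50694016 to 50696684, plus strand, 4 exons). It had 19 and 14 counts in homozygotes and 31 and 6 in heterozygotes, or 2.81 and 1.29 CPM against 5.29 and 0.656 CPM. The homozygous values lay between the heterozygous ones, and the library order was the reverse of that of tfa and cp. The log2 fold change was -0.52 ± 1.11, and 1.64 without heterozygous replicate 1. The annotated span of zgc:110372 covers hamp on the same strand, so reads shared by their exons could be lost from both. bmp6, for the ligand that induces hepcidin in mammals, stayed between 0.683 and 2.84 CPM. hfe2, which carries the older symbol of the hepcidin co-receptor hemojuvelin and which RefSeq also lists as a synonym of rgma, had 1 and 4 counts in homozygotes and 1 and 6 in heterozygotes.

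Ferritin heavy chain, the iron storage protein, gave the most abundant transcript of the group. Scaled to length, fth1a averaged 2009 CPM per kilobase over the 4 libraries, ahead of mt2 at 1168 and tfa at 265 CPM per kilobase. fth1a (chromosome 7, 12675257 to 12683988, plus strand, 5 exons) was at 1833 and 2817 CPM in homozygotes and 2545 and 1308 CPM in heterozygotes. The groups overlapped, at a log2 fold change of 0.27 ± 0.70 (edgeR adjusted p = 0.935), and at -0.14 without heterozygous replicate 2. fth1b, its low-abundance paralog, had close replicates, at 6.81 and 6.27 CPM in homozygotes and 5.12 and 5.69 CPM in heterozygotes. Both homozygous fish were higher, by 1.21-fold (log2 0.27 ± 0.47; edgeR adjusted p = 0.891). Reads shared by near-identical ferritin copies could be split or lost in these counts.

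aco1 encodes the cytosolic aconitase that, when it lacks its iron-sulfur cluster, binds ferritin and transferrin receptor messengers (chromosome 7, 71221965 to 71243335, minus strand, 20 exons). It was at 20.0 and 88.2 CPM in homozygotes and 15.4 and 21.1 CPM in heterozygotes. Homozygous replicate 2 stood alone above the other 3 libraries. The log2 fold change was 1.57 ± 0.72 (edgeR adjusted p = 0.699), and 0.13 without that library.

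**Figure D3:**
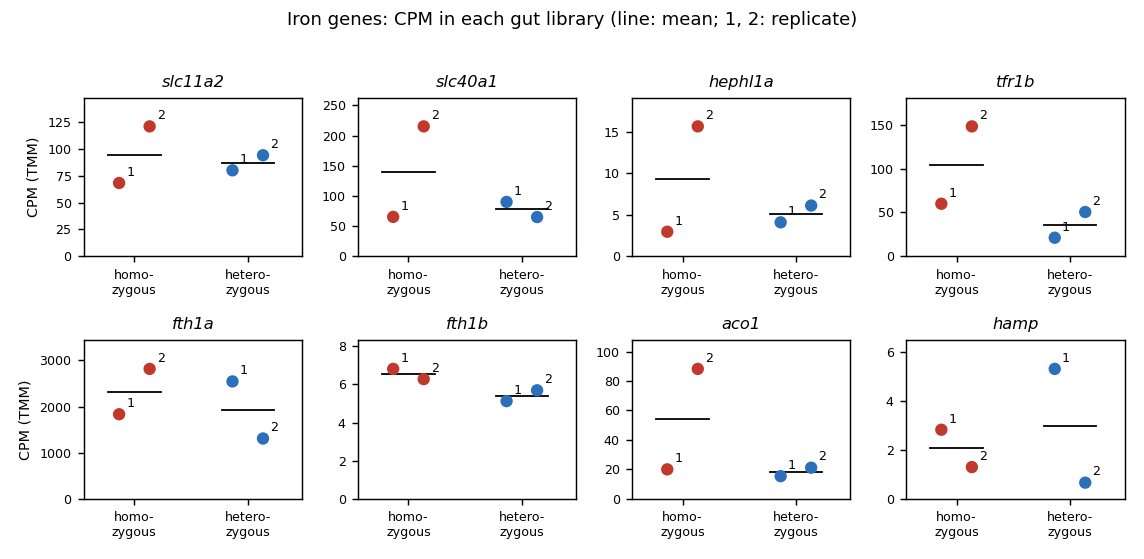
CPM of 8 iron genes in each gut library, homozygous left (red) and heterozygous right (blue), numbers mark the replicate and lines the mean of 2 fish; each panel starts at 0. Homozygous replicate 2 is the highest library for slc11a2, slc40a1, hephl1a, tfr1b, fth1a and aco1, and the genotypes do not overlap for tfr1b and fth1b.

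Among zinc importers slc39a4 showed the cleanest separation. It encodes ZIP4, the transporter that takes up dietary zinc at the gut surface and is mutated in the human zinc deficiency acrodermatitis enteropathica (chromosome 19, 1404826 to 1412035, minus strand). The annotated model is short, at 549 bases over 3 exons. It had 49 and 62 counts in homozygotes and 12 and 17 in heterozygotes, or 7.26 and 5.72 CPM against 2.05 and 1.86 CPM. Both homozygous fish were well above both heterozygotes, and replicates lay close together. The mean was 6.49 ± 1.09 CPM in homozygotes and 1.95 ± 0.133 CPM in heterozygotes (SD, n = 2 each), 3.30-fold higher (log2 1.72 ± 0.57, SE). The unadjusted p was 0.0249 and the edgeR adjusted p 0.699. The estimate stayed between 1.57 and 1.88 with any 1 library left out. Of 14 tested enterocyte markers, 10 had higher and 4 lower estimates, with a median log2 fold change of 0.68. Of these markers, 5 had each homozygous value above both heterozygous ones (background 19.9% of all genes tested), and 1 had each below (background 19.3%). edgeR called 0 of them and DESeq2 called 4, of which slc15a1b (log2 fold change 2.08 ± 0.57), the peptide transporter gene, mep1b (1.80 ± 0.50), a brush border peptidase gene, and chia.2 (2.15 ± 0.89), a chitinase gene, were higher, and fabp6 (-2.21 ± 0.84), a bile acid binding protein gene, was lower. Summed, the list came to 52071 and 56667 CPM in homozygotes and 61579 and 28111 CPM in heterozygotes, and fabp2 and fabp1b.1 gave much of the heterozygous replicate 1 sum. The part of these markers in the slc39a4 value was not tested.

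Other ZIP genes were less clear. slc39a10, for a plasma membrane zinc importer, was at 10.1 and 32.9 CPM in homozygotes and 4.27 and 14.7 CPM in heterozygotes, with replicate 2 higher in each genotype. Its log2 fold change of 1.18 ± 0.80 came to 0.08 without homozygous replicate 2. slc39a6, of the same subfamily, was at 4.74 and 1.20 CPM in homozygotes and 1.37 and 10.2 CPM in heterozygotes, so its genotypes overlapped. slc39a7, which releases zinc from the endoplasmic reticulum, was the most abundant ZIP gene per length at 22.4 CPM per kilobase, with a log2 fold change of -0.32 ± 0.35. slc39a9, slc39a1 and slc39a13 had values of 0.56 ± 0.44, 0.29 ± 0.49 and -0.28 ± 0.93. slc39a3 had a count of 0 in every library.

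Of the 6 tested genes of the Slc30 (ZnT) exporter family 2 had higher and 4 had lower estimates, and none passed the test. slc30a1a encodes ZnT1, which pumps zinc out across the plasma membrane (chromosome 20, 13998159 to 14017811, plus strand, 2 exons). It was at 89.0 and 92.6 CPM in homozygotes and 79.9 and 37.0 CPM in heterozygotes. The homozygous fish were close together and heterozygous replicate 2 was the low library. The log2 fold change was 0.64 ± 0.48 (edgeR adjusted p = 0.738), and 0.18 without heterozygous replicate 2. slc30a10, whose protein exports manganese in vertebrates (chromosome 13, 51757316 to 51764306, minus strand, 7 exons), was at 159 and 148 CPM in homozygotes and 123 and 79.0 CPM in heterozygotes. Both homozygous fish were higher, 1.52-fold (log2 0.61 ± 0.42; edgeR adjusted p = 0.725), and the estimate was 0.31 without heterozygous replicate 2. slc30a1b, a paralog of slc30a1a, had 4 and 5 counts in homozygotes and 2 and 2 in heterozygotes.

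The 4 with lower estimates encode exporters of internal membranes. slc30a5 encodes ZnT5, which loads zinc into the secretory pathway (chromosome 5, 54093833 to 54106700, minus strand, 16 exons). It was at 20.6 and 22.1 CPM in homozygotes and 39.4 and 30.9 CPM in heterozygotes. Neither genotype's replicates spread as far as the genotypes differed. The mean was 21.4 ± 1.11 CPM in homozygotes and 35.1 ± 6.07 CPM in heterozygotes (SD, n = 2 each), 1.64-fold lower (log2 -0.72 ± 0.34, SE; edgeR adjusted p = 0.699). With any 1 library left out the estimate was between -0.89 and -0.50. slc30a7, of the Golgi, and slc30a4, of endosomes, also had both homozygous fish lowest, with log2 fold changes of -0.34 ± 0.36 and -0.35 ± 0.38. slc30a9, of mitochondria, overlapped at -0.11 ± 0.43. slc30a2, an exporter of secretory vesicles in mammals, had 2 counts in heterozygous replicate 2 and 0 in the other 3 libraries.

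mt2, for metallothionein, the cysteine-rich protein that binds zinc and copper (chromosome 18, 17545570 to 17546880, plus strand, 3 exons), was at 857 and 586 CPM in homozygotes and 826 and 310 CPM in heterozygotes. Replicate 1 was the higher fish in each genotype, and the groups overlapped. The log2 fold change was 0.34 ± 0.66 (edgeR adjusted p = 0.905), and -0.20 without heterozygous replicate 2. mtf1, for the zinc-sensing factor that switches on metallothionein, was below the count filter with 5 and 26 counts in homozygotes and 2 and 1 in heterozygotes. Both homozygous libraries were higher, at a ratio of summed counts of 8.81 (95% counting interval 2.75 to 45.0), most of it from homozygous replicate 2. The annotated span of mtf1, 518067 bases over 9 exons, is the longest of the members, with bmp6 next at 74430 bases. Whether that gene model is right was not tested.

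**Figure D4:**
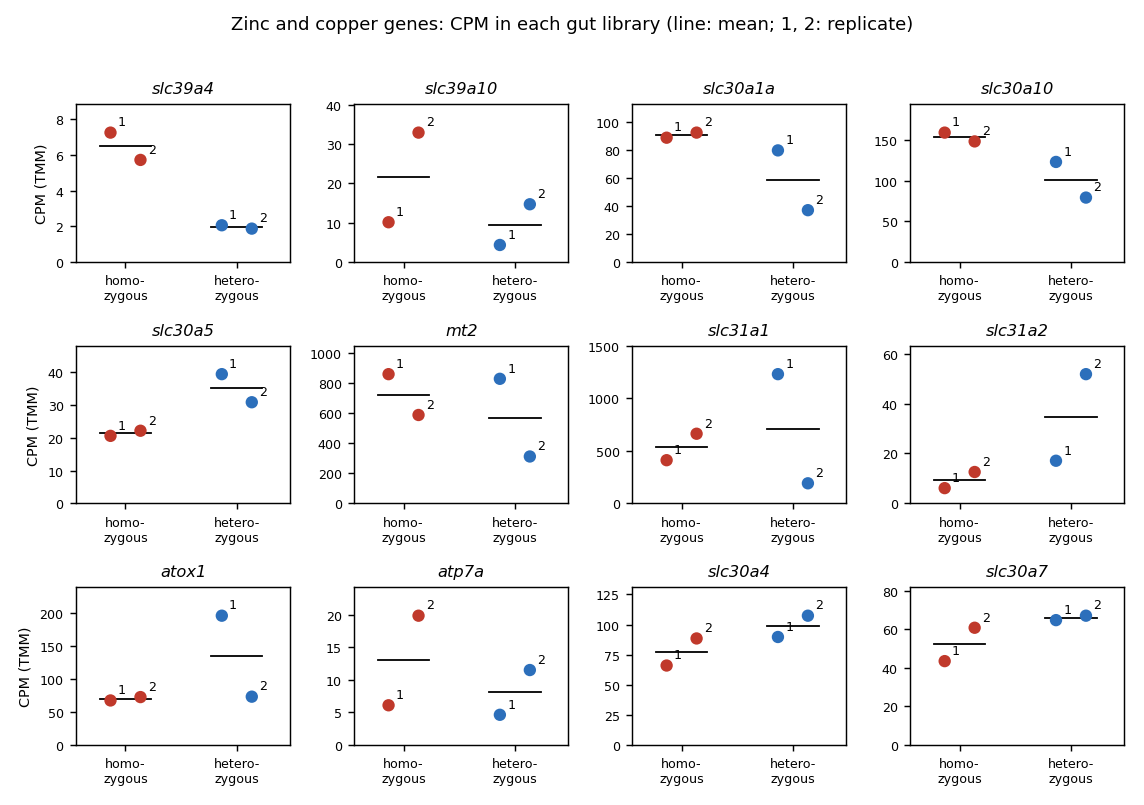
CPM of 12 zinc and copper genes in each gut library, homozygous left (red) and heterozygous right (blue), numbers mark the replicate and lines the mean of 2 fish; each panel starts at 0. slc39a4 lies at 7.26 and 5.72 CPM in homozygotes, above 2.05 and 1.86 CPM in heterozygotes, and slc31a2 lies lowest in both homozygotes.

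All 5 copper genes, counting cp described above, were tested, 4 with lower estimates and 1, atp7a, with a higher one. Of these, cp, slc31a1 and atp7a turned sign in a fit that left out 1 library. slc31a2 encodes CTR2, a copper transporter of internal membranes (chromosome 21, 13689248 to 13700210, plus strand, 4 exons). It was at 6.07 and 12.5 CPM in homozygotes and 17.1 and 51.9 CPM in heterozygotes. Both homozygous fish were lowest, and heterozygous replicate 2 was far above the rest. The mean was 9.31 ± 4.58 CPM in homozygotes and 34.5 ± 24.6 CPM in heterozygotes (SD, n = 2 each), 3.69-fold lower (log2 -1.88 ± 0.67, SE). The unadjusted p was 0.0327 and the edgeR adjusted p 0.699, and without heterozygous replicate 2 the estimate was -0.87. Macrophage markers are given beside it because macrophages are the cells that need irf8. Of 12 tested 8 had lower estimates, all 8 with both homozygous libraries lowest (background 19.3% of all genes tested). The other 4 had higher ones, 3 of them with both highest (background 19.9%). At an unadjusted p under 0.05 in edgeR there were 7, where 6.47% of all genes tested lay under it. edgeR called 0 at an adjusted p of 0.05. DESeq2 called 0 as well, but gave no adjusted p for c1qa, c1qb, c1qc, csf1ra, ccl34b.1 and havcr1. It could therefore not call these genes. Markers that were nearly absent in homozygotes included c1qc, a complement chain gene, with 2 and 4 counts in homozygotes and 26 and 65 in heterozygotes, and csf1ra, a growth factor receptor gene, with 1 and 3 counts in homozygotes and 10 and 14 in heterozygotes. Other markers were not depleted in this way. The marker spi1b was at 6.66 and 6.64 CPM in homozygotes and 2.39 and 4.70 CPM in heterozygotes. The marker mpeg1.1, with a lower estimate, was still at 8.14 and 7.47 CPM in homozygotes, against 8.19 and 15.1 CPM in heterozygotes. The summed list, in which slco2b1 and grn2 predominate, was at 213 and 293 CPM in homozygotes and 237 and 286 CPM in heterozygotes. Of 11 tested stroma and endothelium markers 8 had lower estimates, 6 of them with both homozygous libraries lowest (background 19.3% of all genes tested), and 3 had higher ones. Of these 11 markers 2 had an unadjusted p under 0.05 in edgeR (6.47% of all genes tested), and each tool called 0. DESeq2 gave no adjusted p for pdgfra and cdh5. Among the 11, col1a1a, a collagen gene, was at 59.4 and 36.8 CPM in homozygotes and 65.9 and 322 CPM in heterozygotes. acta2, a smooth muscle gene, overlapped, at 1261 and 160 CPM in homozygotes and 122 and 780 CPM in heterozygotes. The part of either marker list in the slc31a2 value was not tested.

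slc31a1, for the copper importer CTR1 (chromosome 5, 56667477 to 56684692, plus strand, 6 exons), was at 410 and 663 CPM in homozygotes and 1231 and 190 CPM in heterozygotes. The homozygous fish lay between the heterozygotes. The log2 fold change of -0.40 ± 0.92 was 1.53 without heterozygous replicate 1. atox1, for the copper chaperone (chromosome 14, 25685714 to 25688517, minus strand, 4 exons), was at 67.2 and 72.3 CPM in homozygotes and 196 and 73.0 CPM in heterozygotes. Heterozygous replicate 1 alone was high, and the other 3 libraries lay together. Its log2 fold change was -0.94 ± 0.56 (edgeR adjusted p = 0.703), and -0.03 without that library. atp7a, for the ATPase that exports copper from the gut (chromosome 14, 22103251 to 22141922, plus strand, 22 exons), was at 6.07 and 19.8 CPM in homozygotes and 4.61 and 11.5 CPM in heterozygotes, a log2 fold change of 0.68 ± 0.73 that was -0.41 without homozygous replicate 2.

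Other genes of iron, haem, copper and zinc metabolism divided evenly. Of 69 found 59 were tested, 29 with higher and 30 with lower estimates, a median log2 fold change of -0.01. Of these, 0 were called by edgeR (adjusted p under 0.05) and 0 by DESeq2. DESeq2 gave no adjusted p for some of the 59, hmox1a and ccs among them, and could not call those. In edgeR 5 of the 59 had an unadjusted p under 0.05, where 6.47% of all genes tested did. In 16 both homozygous libraries were highest and in 9 lowest (background 19.9% and 19.3% of all genes tested). hmox1a, for the haem oxygenase that frees iron from haem, had 3 and 15 counts in homozygotes and 19 and 66 in heterozygotes, a log2 fold change of -2.46 ± 0.86. ccs, for the chaperone that gives copper to superoxide dismutase, was at 4.15 and 6.46 CPM in homozygotes and 2.05 and 1.42 CPM in heterozygotes, at 1.62 ± 0.65. The table lists cuta, of a family linked to copper tolerance in bacteria, under its clone name zgc:63972. It was at 89.6 and 125 CPM in homozygotes and 52.7 and 30.4 CPM in heterozygotes, at 1.37 ± 0.45. abcb6a, for a porphyrin transporter, had a log2 fold change of 2.01 ± 0.73, nfe2l2a, for a regulator of oxidative stress genes, 1.54 ± 0.69, and id1, a target of BMP signalling, -1.50 ± 0.55. These 6 were picked for the smallest unadjusted p among the 59 in edgeR, and each edgeR adjusted p was 0.699. In all 6 the libraries did not overlap between genotypes (39.2% of all genes tested), which that choice favours.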

How the data were processed

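Whole-gut messenger RNA of 4 fish, which the design text calls separate animals and the labels put in no batches, was captured on oligo-dT beads and made into stranded libraries, per the labels' protocols. The deposited counts are read pairs per gene from featureCounts (Subread 1.5.2), summed over exons with paired reads and the reverse-strand setting on the UCSC annotation of danRer10, per the file headers, which name no aligner. DESeq2 and R 3.3.1 appear in the submitters' processing notes. A second deposited table holds the authors' log2 fold changes and p-values for 76 genes, used here for names only.

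Genes passing edgeR's filterByExpr (minimum count 10, minimum total 15) were scaled by TMM and fitted with genotype as the only term (edgeR 4.0.16, R 4.3.3; quasi-likelihood F test, Benjamini-Hochberg over all 9701 genes). Standard errors are those implied by the F statistic. DESeq2 1.42.0 was the second tool. Both were tested on simulated counts whose replicates varied less than these libraries do, which does not show their power here. Precision is limited by 2 libraries per genotype, and counting intervals (exact binomial) leave out every error but that of counting, as the libraries carry no molecular identifiers to separate PCR copies. Marker names were matched through RefSeq symbols of assembly GRCz12tu, used for names only. Described genes were those of fixed roles, the 12 members with the smallest unadjusted p, members averaging at least 1 CPM whose libraries did not overlap, as many as 6 other metal genes by p, and irf8; bmp6, slc39a1, slc39a13, slc30a9, slc30a1b and slc39a3 were added so that every member is accounted for. Members and lists were chosen with earlier results of these data known. Alternatives tried were other scaling, other filters, DESeq2, the newer quasi-likelihood form, a replicate block, fits without 1 library, the pancreas and liver markers left out, and an adjusted p of 0.1.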

Additional observations from a re-analysis of the deposited data

How the results depend on the processing

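The count of called members was 0 with all libraries and under every alternative named in the processing summary, and the lowest adjusted p of any of the 29 tested members over those was 0.157. Over all genes edgeR called 0 and DESeq2's Wald test 58. Leaving out 1 library gave 0 to 45 calls in edgeR, the 45 without heterozygous replicate 1, and in DESeq2, a combination chosen after seeing the data, 43 and 15 calls without homozygous replicates 1 and 2 and 240 and 79 without heterozygous replicates 1 and 2. Those DESeq2 fits called 0 to 1 members. That member was tfa, at -3.32 without heterozygous replicate 1 (DESeq2 adjusted p = 0.0145) and 7.31 without heterozygous replicate 2 (8.42e-09). The members' median log2 fold change went as low as -0.34 without homozygous replicate 2 and as high as 0.42 when heterozygous replicate 2 was left out. In DESeq2 with all libraries, 3 members had no adjusted p and are counted here as not called. Apart from left-out libraries, 201 of 203 values of single members kept their sign and their side of the threshold. The other 2 were with the replicate number as a block, where tfa was at 1.06 and slc31a1 at 0.11; the cause was not tested. Same-numbered fish share only a number, with deviations from the group means correlated at 0.0643, and the block left 0 genes called.

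With each library left out, 15 members turned sign, a count not made over all genes tested. Their lowest and highest log2 fold changes were -4.43 and 7.29 for tfa, -5.41 and 3.82 for cp, -1.39 and 1.64 for hamp, -1.19 and 0.81 for bmp6, -2.23 and 1.08 for slc39a6, -0.99 and 0.50 for slc39a13, -0.042 and 0.81 for slc39a1, -0.48 and 0.41 for slc30a9, -1.20 and 1.53 for slc31a1, -0.41 and 1.49 for atp7a, -0.20 and 1.25 for mt2, -0.14 and 0.87 for fth1a, -0.35 and 0.50 for slc11a2, -0.25 and 1.498 for slc40a1 and -0.79 and 1.64 for hephl1a. A group left with 1 fish was assumed to vary like the other. Members below the count filter cannot be compared at this depth beyond their counting intervals.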
